A study of Homo sapiens with 3 samples.

Results

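The genes described here encode the proteins of the mitochondrial ribosome, measured in U87 cells, a human glioblastoma line. A gene was counted as a member when its symbol is MRPL or MRPS followed by a number and at most 1 further letter, which left pseudogenes out. The scanner files carry no gene symbols, so probes were named through their RefSeq transcripts. This gave 77 genes of 25006 named genes, covered by 91 probes, and each gene was represented by its brightest probe. By where the protein sits, 51 belong to the large subunit and 26 to the small subunit, with MRPS18A and MRPS30 in the large one despite their symbols.

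The mitochondrial ribosome is assembled in the mitochondrial matrix and translates the messages of mitochondrial DNA, which encode core subunits of the respiratory chain and of ATP synthase. Its RNAs come from mitochondrial DNA, whereas every one of its proteins is encoded in the nucleus, made on cytosolic ribosomes and imported. Some of these proteins descend from those of the bacterial ribosome and others exist only in mitochondria. Gliomas vary widely in how far they rely on respiration or on glycolysis.

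The arrays compared a pair of U87 lines, each a single stable clone grown under G418. U87WT 5 carries GFP-IGF1R, the wild-type receptor for insulin-like growth factor 1 with a fluorescent tag, and U87Mut 5 carries GFP-IGF1R1025x-1100x-1120x, a receptor kept out of the nucleus. On every array the RNA labeled with Cy5 came from U87WT and that labeled with Cy3 from U87Mut, and both were hybridized to the same 2-colour array. There were 3 arrays, 1 per condition: FBS-free medium, IGF1 at 50 nM, and IGF1 at 50 nM with OSI906, an inhibitor of the IGF1R kinase, all for 24 h. OSI906 was used at 0.5 μM by the study's methods and the sample name, while another label gives a higher dose. Both clones carry an added receptor and parental U87 cells were not compared here, so the values set 1 clone against 1 other clone.

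Every condition was measured once and always in the same dye orientation, so the dye bias of a probe cannot be told apart from a difference between the clones. In the comparison of the clones the 3 conditions served as the only repeats. A response to IGF1 or OSI906 that differs between the clones therefore goes into the error. All arrays lay on 1 slide and were scanned together. Median spot brightness was 33 to 35 in the Cy5 channel and 30.5 to 33.5 in the Cy3 channel over a background of 21 to 22, no spot was saturated, and 50.1% to 52.8% of the probes exceeded their background clearly (well above background, by the scanner software) in both channels. The IGF1 array carried a bright patch and 572 spots marked as not uniform, against 384 and 5 on the other arrays, so the background was fitted without marked spots. The glioma markers VIM, CD44, TNC, FN1 and ANXA2 were well above background in both clones on every array, while GFAP, KRT20 and ALB were not well above it on any. Of the other markers of cell types other than glioma, AQP4, PTPRC, VWF and EPCAM were well above background in both clones on every array, at dim levels, the highest being 7.15 for EPCAM, and CD3E and PECAM1 on some arrays. Their part in the results was not tested. The IGF1R probe gave log2 ratios of 0.07, 0.23 and 0.09 in FBS-free medium, IGF1 and IGF1 with OSI906, and it was not established whether it separates the wild-type from the mutant receptor.

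All 77 mitoribosomal genes were well above background for both clones on each of the 3 arrays. Most of them were slightly lower in U87WT than in U87Mut, although on the IGF1 array the sign of their median turned, to 0.36, when a median replaced the loess curve within arrays. The mean log2 ratio of U87WT over U87Mut across the 3 arrays was below 0 for 63 of the 77 genes, with a median of -0.16, against -0.002 for the 15341 named genes well above background. In the limma test of the mean ratio against 0, with Benjamini-Hochberg adjustment over all 58201 probes, 18 mitoribosomal genes were called lower in U87WT and 3 higher. The background was 4.15% of all probes called lower and 4.28% called higher, or 6.65% and 7.00% of the 25006 named genes and 10.7% and 11.0% of those well above background, and among the mitoribosomal genes the shares were 23.4% and 3.9%. Without adjustment, 46 of the 77 genes (59.7%) had a limma p below 0.05, against 30.1% of all named genes and 45.4% of those well above background. The order turned with the signals of the scanner software, to 11.7% against 22.7% of genes well above background. With a median in place of loess the shares were 5.19% against 18.9%.

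The promoters of 3 genes near the ends of the range are shown, chosen because their upstream window lies outside the annotated gene. MRPS6 and MRPS24 were called higher in U87WT and MRPS23 lower. The sequences are the 250 bases before the annotated start, from RefSeq on GRCh38.p14, at chr21:34073328-34073577 on the plus strand, chr7:43869518-43869767 on the minus strand and chr17:57850045-57850294 on the minus strand, and are written 5′ to 3′ along the gene. They are all lower case because none of the motifs searched below occurs in them.
MRPS6: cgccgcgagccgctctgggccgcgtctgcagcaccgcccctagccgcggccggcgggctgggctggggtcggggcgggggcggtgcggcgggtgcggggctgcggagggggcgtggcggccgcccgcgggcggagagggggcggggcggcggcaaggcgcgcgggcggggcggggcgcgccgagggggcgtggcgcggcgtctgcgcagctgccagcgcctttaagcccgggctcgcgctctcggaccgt
MRPS24: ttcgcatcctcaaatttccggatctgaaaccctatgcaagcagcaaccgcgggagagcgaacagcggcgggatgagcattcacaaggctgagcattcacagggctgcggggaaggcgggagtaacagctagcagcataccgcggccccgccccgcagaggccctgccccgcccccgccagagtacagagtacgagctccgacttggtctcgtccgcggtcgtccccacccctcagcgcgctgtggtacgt
MRPS23: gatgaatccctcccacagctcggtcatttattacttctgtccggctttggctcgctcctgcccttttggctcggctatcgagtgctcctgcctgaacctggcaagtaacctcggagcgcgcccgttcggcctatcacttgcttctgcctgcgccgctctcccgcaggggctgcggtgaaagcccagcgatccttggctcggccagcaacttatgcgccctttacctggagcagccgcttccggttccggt
The share of G and C was 84.8% in the MRPS6 window, 64.4% in that of MRPS24 and 61.6% in that of MRPS23.

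Promoters of 69 of the 77 genes were in the RefSeq table, and each was searched on both strands, from 250 bases before to 50 bases after the start, for short motifs of factors that are known to bind promoters of genes for mitochondrial proteins. The YY1 motif ATGGCGGC occurred in 19 of the 69 (27.5%), against 4.5% of 15843 promoters of protein-coding genes. The ETS motif CCGGAAGT occurred in 11 (15.9%, against 6.2%) and the NRF1 motif GCATGCGC in 6 (8.7%, against 4.3%). At least 1 of the 3 motifs was found in 31 promoters (44.9%, against 13.6%), and no match overlapped one of another motif. A match is a run of letters and does not show that the factor binds there. The YY1 motif opens with ATG, the letters of a start codon, and the search took in 50 bases after the start. Whether matches there are the first codons of the protein was not tested.

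The YY1 motif was found at genes of both directions, in 2 of the 3 called higher, 5 of the 16 called lower that had a promoter in the table, and 12 of the other 50. The 30 bases around the match are shown for these 7 genes, to set the higher and lower genes side by side, with the motif in capitals and GCCGCCAT marking a match on the opposite strand.
MRPL36: cccccccccccGCCGCCATcttccttcctg
MRPS24: cttggcccaagATGGCGGCctccgtgtgca
MRPS15: cctgggccagcATGGCGGCgcccatgtaac
MRPS18A: ggtttttgaagATGGCGGCcctcaaggctc
MRPS35: tcctcgcagccATGGCGGCcgccgcgctcc
MRPL50: tctcatcgaagATGGCGGCgcgatctgtgt
MRPL47: acaaactcatgGCCGCCATggctactacgg
MRPL36 and MRPS24 were called higher in U87WT and the other 5 lower. The windows lie at chr5:1799857-1799886, chr7:43869477-43869506, chr1:36464339-36464368, chr6:43687761-43687790, chr12:27710833-27710862, chr9:101398574-101398603 and chr3:179604805-179604834 in the order printed, with MRPS35 on the plus strand and the others on the minus strand. The match began 13 to 28 bases after the annotated start in MRPS18A, MRPS35, MRPS24, MRPL50 and MRPS15. It lay upstream of that start in MRPL36 and MRPL47, at positions -38 and -185. The MRPL36 window still lies within the annotated span of its gene, since the start used is not the outermost one.

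**Figure D1:**
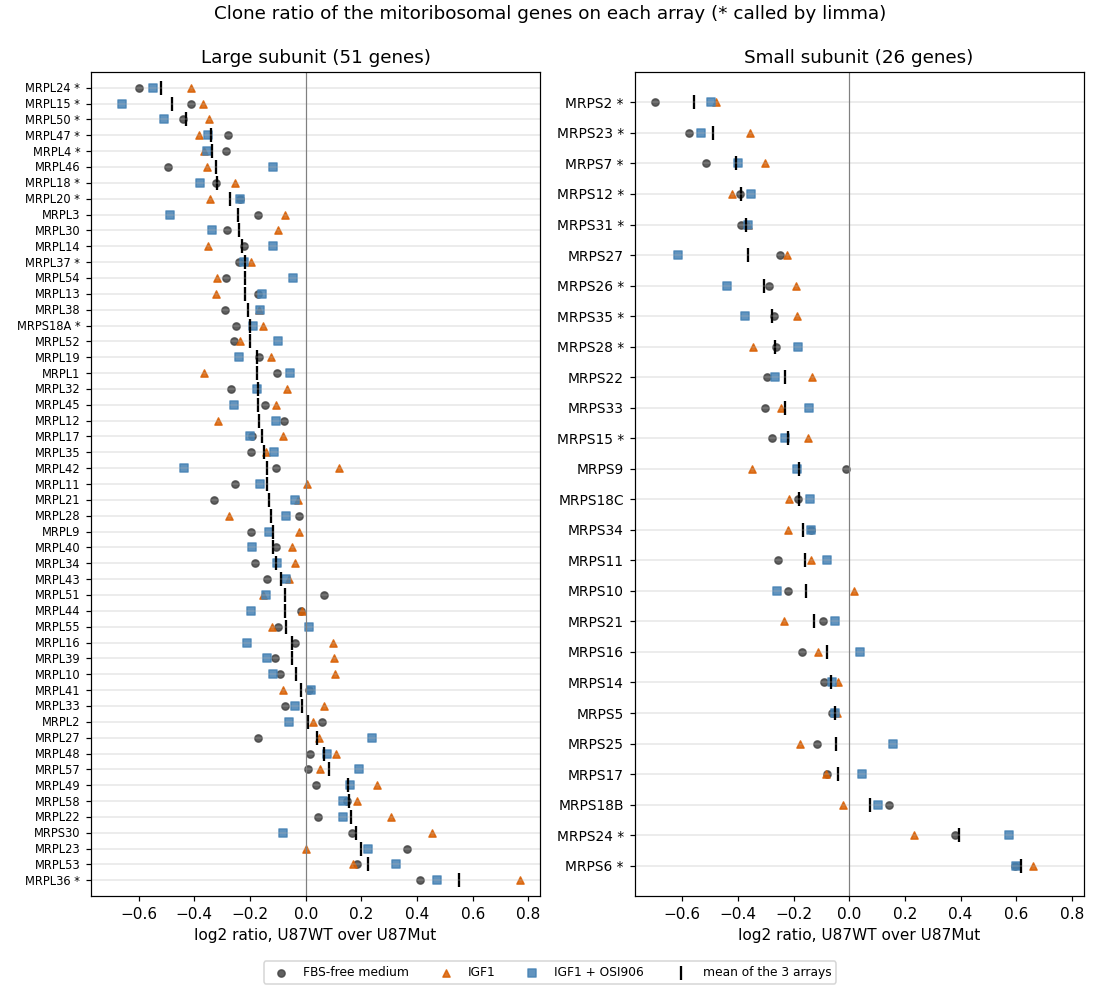
Log2 ratio of U87WT over U87Mut on the x axis for each of the 77 mitoribosomal genes, ordered by their mean in the large subunit (left, 51 genes) and the small subunit (right, 26 genes). Circles, triangles and squares are the FBS-free, IGF1 and IGF1 with OSI906 arrays, the bar is their mean, and an asterisk marks the 21 genes called by limma, 18 of them left of 0 and 3 right of it.

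In FBS-free medium, 62 of the 77 genes had a ratio below 0, in IGF1 57, and in IGF1 with OSI906 60. The median ratios were -0.17, -0.12 and -0.14, while the genes well above background had medians of -0.01, 0.02 and -0.01. The mitoribosomal ratios were also packed more closely than those of the genes well above background. Their SDs across genes were 0.22, 0.23 and 0.24, against 0.36, 0.35 and 0.34. The sets were not matched for brightness, and SDs under other processing were not compared. The sign was negative on all 3 arrays for 50 genes, positive on all 3 for 10 and mixed for 17, and of the genes well above background 28.7% were negative and 28.6% positive on all 3.

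A ratio past 0.5 in either direction on at least 1 array was found for 10 of the 77 genes (13.0%), against 20.4% of genes well above background. The order of these shares depended on the processing: it was 26.0% against 21.2% with the background fitted on all spots, 31.2% against 27.9% in the deposited ratios and 54.5% against 47.0% with a median in place of loess. The 10 genes were MRPS2, MRPL24, MRPS23, MRPL15, MRPL50, MRPS7 and MRPS27 on the lower side and MRPS6, MRPL36 and MRPS24 on the higher side. Across genes, the ratios of one array correlated with those of another with Pearson's r of 0.78 (FBS-free and IGF1), 0.81 (FBS-free and IGF1 with OSI906) and 0.68 (IGF1 and IGF1 with OSI906). Over the genes well above background the same correlations were 0.73, 0.81 and 0.71. The 77 mitoribosomal points share the probes, the dyes and the slide, and the genes are not independent replicates.

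**Figure D2:**
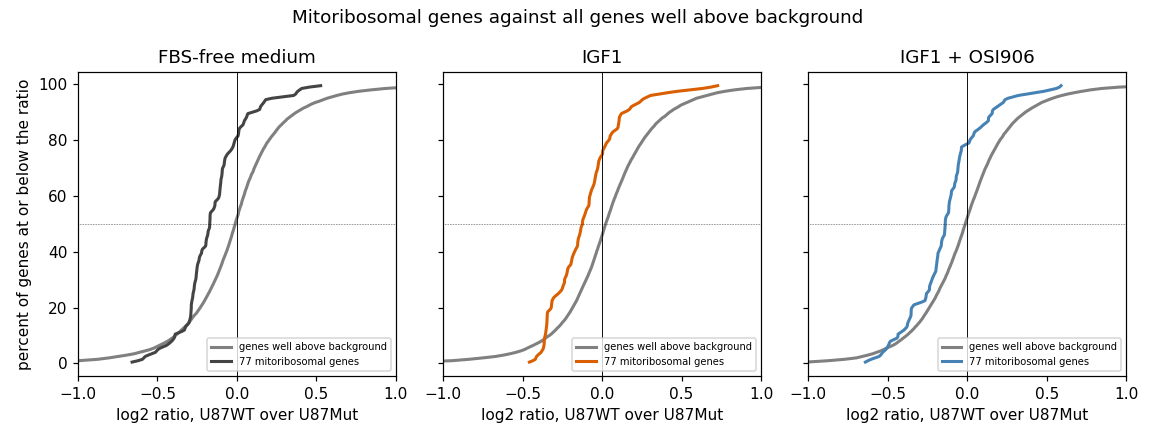
Percent of genes (y axis) at or below each log2 ratio of U87WT over U87Mut (x axis, shown from -1 to 1) on each of the 3 arrays, for the 77 mitoribosomal genes (coloured line) and the 15341 named genes well above background (grey). The coloured line crosses 50% at -0.17, -0.12 and -0.14, to the left of the grey line, and is steeper. With a median in place of loess the crossing on the IGF1 array moved to 0.36.

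The genes called higher were few and lay apart from the rest. MRPS6, a small subunit protein with a bacterial counterpart, lies on chromosome 21 (34073578 to 34143030). Its normalized log2 level in U87WT was 13.38 in FBS-free medium, 13.20 in IGF1 and 13.09 in IGF1 with OSI906, against 12.78, 12.54 and 12.49 in U87Mut. All 3 levels of U87WT were above all 3 of U87Mut. The log2 ratios were 0.60, 0.66 and 0.60. Their mean was 0.62 ± 0.04 (SE over 3 arrays with limma's moderated variance, here and below), or 1.53-fold (limma, adjusted p = 0.0043). This probe was spotted 10 times on each array, and the SD of the ratio over these spots was 0.028 to 0.042. MRPS6 was called under 9 of the 12 other settings tried, the most of any of these genes.

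MRPL36, the counterpart of the smallest protein of the bacterial large subunit, lies on chromosome 5 (1798385 to 1801434). Its levels were 11.19, 11.35 and 11.31 in U87WT in the same order of conditions, and 10.78, 10.58 and 10.84 in U87Mut. The clones again did not overlap. Its ratios were 0.41, 0.77 and 0.47 with a mean of 0.55 ± 0.08 (SE), or 1.46-fold (limma, adjusted p = 0.024). MRPS24, the counterpart of bacterial S3, lies on chromosome 7 (43866558 to 43869517) and was the brightest of these 3 probes. Its levels were 14.52, 14.24 and 14.71 in U87WT and 14.14, 14.01 and 14.13 in U87Mut, so here too no level of U87Mut reached one of U87WT. The ratios were 0.38, 0.23 and 0.57 (mean 0.40 ± 0.07 SE, 1.32-fold; limma, adjusted p = 0.045). MRPL53 and MRPL23 followed with mean ratios of 0.23 and 0.20 and were not called (limma, adjusted p = 0.059 and 0.24).

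The lowest gene was MRPS2, a small subunit protein of bacterial descent on chromosome 9 (135499965 to 135504673). Its level in U87WT was 12.15, 12.36 and 12.25 in FBS-free medium, IGF1 and IGF1 with OSI906, and in U87Mut 12.85, 12.84 and 12.75. U87WT lay below U87Mut in every condition without overlap. The ratios of -0.70, -0.48 and -0.50 had a mean of -0.56 ± 0.06 (SE), which is 1.47-fold higher in U87Mut (limma, adjusted p = 0.011).

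MRPL24, the counterpart of a bacterial protein that starts the assembly of the large subunit, lies on chromosome 1 (156737303 to 156742716). Its levels were 10.83, 11.16 and 10.84 in U87WT and 11.43, 11.57 and 11.39 in U87Mut. The ratios were -0.60, -0.41 and -0.55 with a mean of -0.52 ± 0.05 (SE), 1.43-fold higher in U87Mut (limma, adjusted p = 0.0097). MRPS23, a small subunit protein found in mitochondria and not in bacteria, lies on chromosome 17 (57834781 to 57850044). It was dimmer, with levels of 8.33, 8.64 and 8.42 in U87WT and 8.90, 8.99 and 8.95 in U87Mut. Its ratios were -0.58, -0.36 and -0.53 (mean -0.49 ± 0.05 SE, 1.40-fold higher in U87Mut; limma, adjusted p = 0.014). The SD over its 10 spots was 0.040 to 0.090. For both genes no level of U87WT reached one of U87Mut. The genes whose levels are given here were picked by their clone ratio, so the lack of overlap adds no support. How often levels do not overlap among other genes was not counted.

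**Figure D3:**
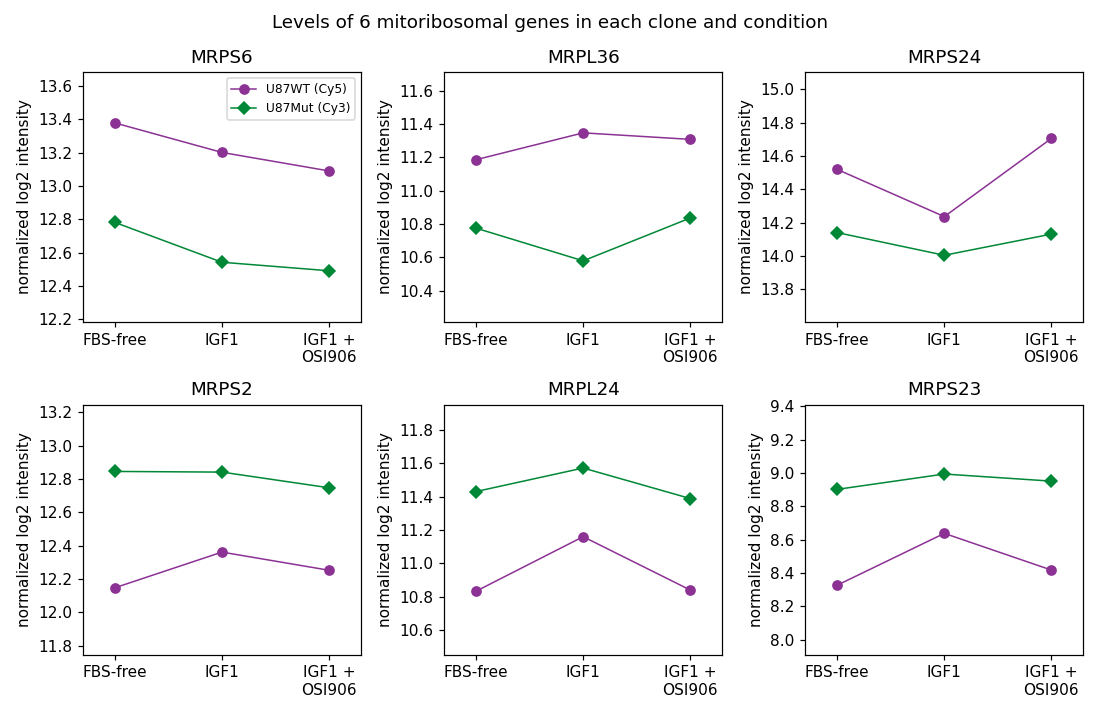
Normalized log2 intensity (y axis, 1.5 units in each panel) of the 3 mitoribosomal genes called higher in U87WT (top) and the 3 lowest (bottom) in FBS-free medium, IGF1 and IGF1 with OSI906. Each point is 1 channel of 1 array, with U87WT (Cy5) as circles and U87Mut (Cy3) as diamonds, and the clones do not overlap in any panel. The genes were chosen by their clone ratio, so the separation is no further evidence of a difference.

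Then came large and small subunit genes in mixed order. MRPL15, of bacterial descent, had ratios of -0.41, -0.37 and -0.66 (mean -0.48; limma, adjusted p = 0.023). MRPL50, particular to mitochondria, had -0.44, -0.35 and -0.51 (mean -0.43; limma, adjusted p = 0.012). MRPS7, whose bacterial counterpart starts the assembly of the head of the small subunit, had -0.51, -0.30 and -0.40 (mean -0.41; limma, adjusted p = 0.018). MRPS12, the counterpart of a protein of the bacterial decoding centre, and MRPS31, particular to mitochondria, varied little between arrays. MRPS12 had ratios of -0.39, -0.42 and -0.35 (limma, adjusted p = 0.0087) and MRPS31 of -0.39, -0.36 and -0.36 (limma, adjusted p = 0.0086). MRPL47, which sits near the exit of the peptide tunnel, had a mean of -0.34 (limma, adjusted p = 0.014), and so did MRPL4, whose bacterial counterpart lines that tunnel (limma, adjusted p = 0.013). The other 8 genes called lower were MRPL18, MRPS26, MRPS35, MRPL20, MRPS28, MRPL37, MRPS15 and MRPS18A, with mean ratios from -0.32 to -0.20.

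Both subunits held genes called lower. In the small subunit 9 of 26 were called lower (34.6%) and 2 higher, with a median mean ratio of -0.18, and in the large subunit 9 of 51 (17.6%) and 1 higher, with a median of -0.14. Of the 47 genes with a bacterial counterpart 11 were called lower and 3 higher, and of the 30 particular to mitochondria 7 and 0. This counts MRPS18A by its place, which is particular to mitochondria. Counted by its descent from bacterial S18, it makes 12 of 48 lower among the first and 6 of 29 among the second. All 9 small subunit genes particular to mitochondria had a mean ratio below 0, from -0.49 for MRPS23 to -0.05 for MRPS25, and 4 of them were called lower: MRPS23, MRPS31, MRPS26 and MRPS35. Over all 77 mitoribosomal genes, 63 had a mean ratio below 0 and 23.4% were called lower. Among genes well above background 10.7% were called lower and 11.0% higher. Differences between the classes of mitoribosomal genes were not tested.

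MRPS18A, MRPS18B and MRPS18C are paralogs that each descend from bacterial S18 and occupy different places in the ribosome, MRPS18A in the large subunit. Their ratios on the 3 arrays in that order were -0.25, -0.15 and -0.19 for MRPS18A, 0.14, -0.02 and 0.10 for MRPS18B, and -0.18, -0.22 and -0.14 for MRPS18C. MRPS18A was called (limma, adjusted p = 0.048), a call kept under 1 of the 12 other settings, where its adjusted p ranged from 0.038 to 0.88. MRPS18B and MRPS18C were not called, the latter at an adjusted p of 0.055 (limma). Whether the paralogs differ from each other was not tested. For 14 genes a second probe was present, and in 10 of them both probes had the same sign. The probes of MRPL19 differed most, with a mean ratio of -0.18 for the brightest and 0.22 for the other, followed by MRPL37 with -0.22 and -0.47.

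The calls did not all stand on each array. Without the IGF1 array 19 genes were called lower and 4 higher, without the FBS-free array 1 and 1, and without the IGF1 with OSI906 array 0 and 0, where 40 genes (51.9%) had an unadjusted limma p below 0.05, against 38.0% of genes well above background. With the background fitted on all spots, marked ones included, 5 were lower and 3 higher. With the signals of the scanner software, or with a median in place of the loess curve within arrays, none was called in any direction among all probes. The unadjusted shares of mitoribosomal genes were then 11.7% and 5.19%, below the 22.7% and 18.9% of genes well above background. The share of all probes called lower changed along with the counts of called genes, from 4.15% with all arrays. It was 5.32% without the IGF1 array, 0.83% without the FBS-free array and 0.189% without the IGF1 with OSI906 array. With the background fitted on all spots it was 0.893%. Probes called higher numbered 2935, 676, 122 and 155 in the same order, against 2493.

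The plot of levels showed small shifts between conditions within a clone, and these were compared next. They carry no test, since each clone was measured once in each condition, and the comparisons share arrays. The response to IGF1 is the log2 level in IGF1 minus that in FBS-free medium. It had a median of 0.05 over the 77 genes in U87WT and of -0.02 in U87Mut, against 0.01 and -0.03 over all genes well above background. It was above 0 for 47 of 77 genes in U87WT and for 35 in U87Mut. The direction of these medians turned with the processing. Less the median of all named genes, they were 0.05 and -0.01, but -0.03 and 0.05 with the background fitted on all spots, and 0.37 and -0.31 with a median in place of loess. No mitoribosomal gene moved past 0.5 in either clone, where 2.11% of genes well above background rose and 2.72% fell past it in U87WT, and 0.854% and 1.68% in U87Mut. With a median in place of loess 23 mitoribosomal genes went past 0.5 in U87WT and 15 in U87Mut, and with the signals of the scanner software 2 and 1.

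OSI906 on top of IGF1 moved the median by -0.04 in U87WT and -0.01 in U87Mut, and again no mitoribosomal gene went past 0.5. Among genes well above background 3.73% rose and 3.68% fell past 0.5 in U87WT, and 2.07% rose and 0.984% fell in U87Mut. Between FBS-free medium and IGF1 with OSI906 no mitoribosomal gene went past 0.5 either, against 2.44% of genes well above background that rose and 2.27% that fell in U87WT, and 0.684% and 0.763% in U87Mut. With a median in place of loess 5 mitoribosomal genes went past 0.5 under OSI906 in U87WT and 0 in U87Mut, and 1 and 3 between FBS-free medium and IGF1 with OSI906. Repeated spots of 1 probe had a median SD of 0.12 to 0.16 in a single channel, so differences of this size lie within a few spot SDs.

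In U87WT the largest values of the response to IGF1 were 0.37 for MRPS11, 0.34 for MRPS26 and 0.33 for MRPL24, and the lowest were -0.46 for MRPL23, -0.38 for MRPL51 and -0.30 for MRPS18C. The level of MRPL23, which forms part of the rim of the peptide exit, was 11.14, 10.67 and 11.14 in U87WT over FBS-free medium, IGF1 and IGF1 with OSI906, and 10.77, 10.67 and 10.91 in U87Mut. In U87WT the level in IGF1 was below both others, which were alike. In U87Mut the largest values were 0.27 for MRPL57, 0.25 for MRPS11 and 0.25 for MRPS12, and the lowest were -0.41 for MRPL33, -0.27 for MRPS18C and -0.24 for MRPS6. MRPS11 and MRPS18C thus stood among the extremes of both clones, which were measured on the same arrays. These values moved with the processing. With the signals of the scanner software MRPL24 was at 0.07 in U87WT, and MRPS11 and MRPS12 at 0.01 and 0.02 in U87Mut. With a median in place of loess, MRPL51 and MRPS18C in U87WT were at 0.01 and 0.07. In U87Mut MRPL57, MRPS11 and MRPS12 were then at -0.0049, -0.135 and -0.13. The other values named kept their sign under both settings.

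**Figure D4:**
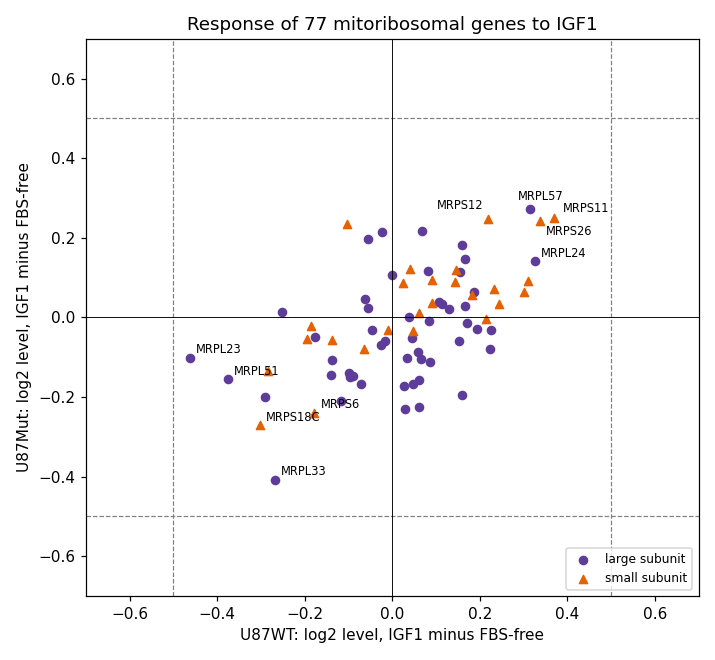
Log2 level in IGF1 minus that in FBS-free medium for the 77 mitoribosomal genes in U87WT (x axis) and U87Mut (y axis), each from 1 array per condition, with large subunit genes as circles and small subunit genes as triangles. All points lie inside the dashed lines at -0.5 and 0.5, and the genes named are the 3 highest and 3 lowest in each clone.

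The clone ratio itself moved with the condition in some genes. The ratio with IGF1, less the mean of the ratios on the remaining arrays, was largest for MRPS30 (0.41), MRPL42 (0.39) and MRPL36 (0.33). MRPS30, a large subunit protein particular to mitochondria, had ratios of 0.17, 0.45 and -0.08 in FBS-free medium, IGF1 and IGF1 with OSI906, and MRPL42 had -0.11, 0.12 and -0.44. It was lowest for MRPL23 (-0.29), MRPL1 (-0.29) and MRPS9 (-0.25). MRPL23 had ratios of 0.36, 0.00 and 0.23, MRPL1, of the stalk that releases spent tRNA, -0.10, -0.37 and -0.06, and MRPS9 -0.01, -0.35 and -0.19. MRPL1 was also the dimmest of the 77 probes, with levels of 6.33 to 6.69. None of these shifts has a replicate, and they rest on the IGF1 array, which carried the bright patch. With the background fitted on all spots the shift was -0.04 for MRPS30, 0.11 for MRPL42, 0.03 for MRPL36 and 0.03 for MRPL1, while it was -0.59 for MRPL23 and -0.53 for MRPS9. With a median in place of loess the last 2 turned to 0.24 and 0.29.

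Genes that lie on or next to a mitoribosomal gene were looked at because they can share its promoter or its copy number. Of the 21 genes called, 7 overlap another protein-coding gene with a named probe, 8 such genes in all. Of these 8, 3 were called in the same direction as the mitoribosomal gene and 0 in the opposite one. Among all genes well above background 10.7% were called lower and 11.0% higher. SLC5A3, a myo-inositol transporter, has the same annotated start as MRPS6, so the promoter printed above is also its own. It had ratios of 1.27, 1.27 and 1.05 (mean 1.20; limma, adjusted p = 0.0036). NDUFS6, a subunit of respiratory complex I next to MRPL36, had ratios of 0.28, 0.39 and 0.57 (mean 0.41; limma, adjusted p = 0.031). ACTL6A, a subunit of chromatin remodelling complexes beside MRPL47, had ratios of -0.78, -0.47 and -0.82 (mean -0.69; limma, adjusted p = 0.015). Whether a probe of one gene also bound RNA of the other was not tested.

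For 18 mitoribosomal genes a protein-coding gene that was well above background starts on the opposite strand within 1000 bases, back to back with them. In 5 such pairs the mitoribosomal gene was called lower, and the partner was called in none of them. Of all 18 partners 13 had a mean ratio below 0, as had 7753 of the 15341 genes well above background. The partners had a median of -0.12 where the mitoribosomal genes of these pairs had -0.20. Among the partners 3 were called lower and 0 higher, against 10.7% and 11.0% of genes well above background. These 3 were PSMA2 beside MRPL32, NCAPD2 beside MRPL51 and SKA3 beside MRPL57, whose mitoribosomal genes were not called. MRPS12 and SARS2, the mitochondrial seryl-tRNA synthetase, start 181 bases apart. SARS2 had ratios of 0.20, -0.01 and 0.03 where MRPS12 had -0.39, -0.42 and -0.35. MRPL18 and TCP1, a subunit of the cytosolic chaperonin, start 210 bases apart, and TCP1 had a mean ratio of -0.28 that was not called (limma, adjusted p = 0.063). MRPL46 and MRPS11 are both mitoribosomal and start 320 bases apart, with mean ratios of -0.32 and -0.16, neither of them called. Each is counted above as the partner of the other.

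The 10 nearest named genes well above background gave a coarser view of position. Around MRPS6, SLC5A3 included, their median mean ratio was 0.21, around MRPS31 0.13 with 1 of 10 below 0, and around MRPS18A -0.30 with 8 of 10 below 0. Around MRPS2, MRPL24 and MRPS23 it was -0.03, -0.02 and -0.03, so those neighbourhoods lay near the overall median. Around the other genes called lower it ranged from -0.16 (MRPL47, with 8 of 10 below 0) to 0.06 (MRPS15, with 5 of 10). The genes called lower came from 10 chromosomes, with 4 on chromosome 1 and at most 2 on any other.

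Other genes of mitochondrial translation were described from lists by function. In each list the median mean ratio was below 0, and the shares called can be read against the 10.7% of genes well above background called lower and the 11.0% called higher. Of 5 ribosomal proteins with other symbols, DAP3, CHCHD1, AURKAIP1, PTCD3 and GADD45GIP1, none was called, with 1 at an unadjusted limma p below 0.05, and their median was -0.14. Of 13 translation factors only TACO1 (7.69%), an activator of the translation of a cytochrome oxidase subunit, was called, with ratios of -0.31, -0.35 and -0.35 (limma, adjusted p = 0.011).

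Of 22 genes that charge mitochondrial tRNAs, 3 were called lower (13.6%) and 1 higher (4.55%). GARS1, the glycyl-tRNA synthetase of both cytosol and mitochondria, had ratios of -0.90, -0.67 and -1.03 (mean -0.87; limma, adjusted p = 0.0086), the largest difference in these lists. AARS2 and WARS2, which charge the tRNAs of alanine and tryptophan, had means of -0.22 and -0.33 (limma, adjusted p = 0.039 and 0.019). CARS2, which charges that of cysteine, had ratios of 0.35, 0.26 and 0.44 (mean 0.35; limma, adjusted p = 0.020).

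Of 24 assembly factors 5 were called lower (20.8%) and 2 higher (8.33%), with a list median of -0.10. The lower ones were MPV17L2, with a mean ratio of -0.40, MRM1, a methyltransferase of the large rRNA, with -0.35, RPUSD4, a pseudouridine synthase, with -0.34, ERAL1, a chaperone of the small rRNA, with -0.32, and TFB1M, which methylates the small rRNA, with -0.23. The higher ones were PUSL1, a pseudouridine synthase, with 0.50, and YBEY, an endoribonuclease, with 0.40. Of 11 factors of mitochondrial transcription and RNA handling 3 were called lower (27.3%): TWNK, the helicase of mitochondrial DNA, with -0.43, PNPT1, an RNA-degrading enzyme, with -0.36, and SLIRP, which stabilizes mitochondrial messages, with -0.21. TFAM, which packages mitochondrial DNA, had ratios of -0.96, -0.57 and -0.20 and was not called (limma, adjusted p = 0.10). For the transcripts of mitochondrial DNA itself no named probe was used here.

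**Figure D5:**
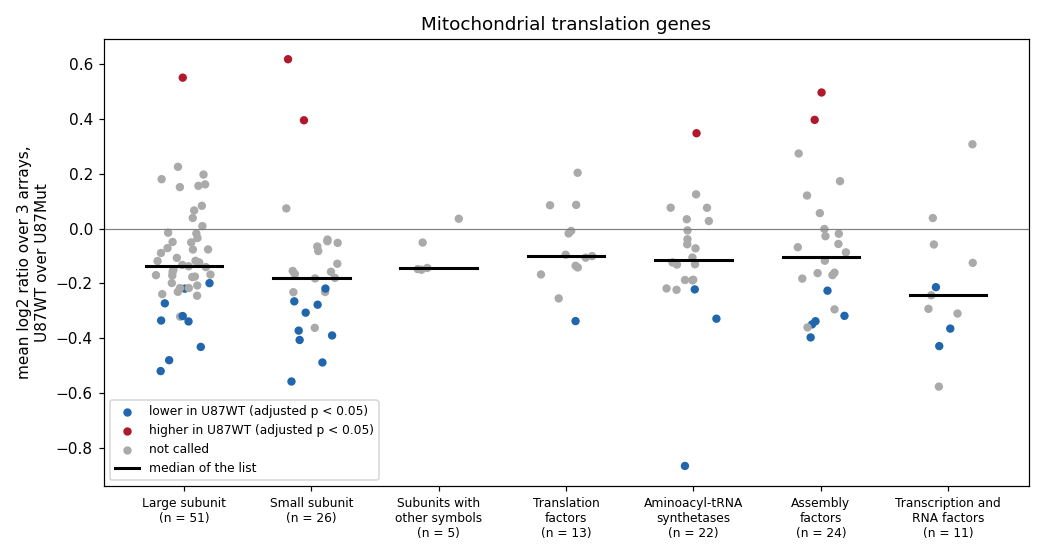
Mean log2 ratio of U87WT over U87Mut across the 3 arrays (y axis) for each gene of the 2 ribosomal subunits and of 5 lists of other genes of mitochondrial gene expression. Points are genes, spread sideways for clarity, with those called lower in blue, called higher in red and not called in grey, and the black bar is the list's median, which is below 0 in each list.

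The proteins of the cytosolic ribosome were set beside these, since both kinds are made on cytosolic ribosomes. Of 85 such genes 38 were called higher in U87WT and 3 lower, with a median mean ratio of 0.21, where the 77 mitoribosomal genes had 3 higher, 18 lower and a median of -0.16. The medians on the FBS-free, IGF1 and IGF1 with OSI906 arrays were 0.25, 0.20 and 0.25 for the cytosolic proteins, but they turned to -0.07, -0.07 and -0.05 with quantile normalization over all 6 channels, where those of the mitochondrial proteins were -0.13, -0.13 and -0.12. The difference between the sets was not tested.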

How the data were processed

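Each array was deposited as scanner output of Agilent Feature Extraction 12.0.3.1, with intensity values of 62976 spots per channel that are not normalized. The authors also deposited log2 ratios, for which the methods name background correction and both kinds of normalization in limma, whose version is not given in the sources used here.

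Here the median spot and local background intensities were corrected by normexp (offset 50, fitted without spots marked as not uniform, at most 0.908% of an array), 2075 control spots were removed, arrays were normalized by loess with weight 0 for outlier spots and between arrays by Aquantile, outlier spots were dropped and 1 value per probe was taken as the mean of its spots, for 58201 probes (R 4.3.3, limma 3.58.1, data.table version 1.17.8). Of 36770 RefSeq probes, 34892 were named from the GRCh38.p14 annotation. Loess can remove part of a true difference that follows brightness, and the offset shrinks ratios of dim probes. Channel levels are the normalized log2 intensities of Cy5 and Cy3. The clone difference was tested in limma by an intercept-only linear model with moderated variance, two-sided, with Benjamini-Hochberg adjustment and a limit of 5%. On simulated ratios of 58174 probes for this test, 97 of 100 probes moved by 0.5 and 99 of 100 moved by 1 were called. So were 27 probes that had not been moved, which are false calls. The simulated noise was drawn independently from limma's moderated variances, without dye bias, bright patch or response to a condition. The simulation therefore checks the code and does not show how the test fares on these arrays.

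Genes named in the text are the called mitoribosomal genes with the largest differences, the extremes by clone ratio and by response to IGF1, the S18 paralogs, genes whose probes differ most, and called genes of the lists, with any other gene singled out after its values were seen. The genes and lists were chosen with earlier results of these data known. Alternatives concerned the background fit, offset, normalization, probes of a gene, dim probes, the deposited ratios and leaving out each array. With 1 array per condition, precision is limited by their number.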

Additional observations from a re-analysis of the deposited data

How the results depend on the processing

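No paired analysis was possible because the conditions share a single replicate number, so no block by number could be fitted. The clone ratio already pairs U87WT with U87Mut within each of the 3 arrays. The median over all named genes stayed within 0.1 of 0 on each array under each of the settings tried, and of the 16 called mitoribosomal genes that the rule for named genes covers, all 16 kept the sign of their mean ratio under all 12 of them. Leaving out 1 array at a time gave 0 to 4 genes called higher, 0 to 19 called lower and 6 to 9 past 0.5 on at least 1 array. The share of all probes called lower ranged from 0.189% to 5.32% over these settings.

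The medians that follow are those of the mitoribosomal genes minus that of all named genes, which were -0.17, -0.13 and -0.14 for the clone ratio in FBS-free medium, IGF1 and IGF1 with OSI906, 0.05 and -0.04 for the response to IGF1 and to OSI906 in U87WT, and -0.01 and -0.02 in U87Mut. With the background fitted on all spots, 5 genes were called lower and 20 went past 0.5, and the medians were -0.32 for the clone ratio in IGF1, -0.0324 and 0.0373 for the responses in U87WT and 0.0519 and -0.0748 in U87Mut. From the authors' deposited ratios, 5 were called lower, 24 went past 0.5, and the median in IGF1 was -0.34. Over 58201 shared probes, the deposited ratios correlated with those used here at r = 0.99 in FBS-free medium and 0.97 in IGF1 with OSI906. On the IGF1 array r was only 0.60. Without background correction 11 were called lower. Of all probes, 0.893% were called lower with all spots, 1.04% in the deposited ratios and 3.64% without background correction. The share was 4.15% with the processing used for the results above. With the scanner's own signals 0 were called in either direction, and the medians were -0.11 in FBS-free medium, -0.0699 in IGF1 with OSI906, -0.0107 for the response to IGF1 in U87WT and -0.10 for OSI906 in U87Mut. With a median in place of loess 0 were called in either direction, 42 went past 0.5, and the medians were -0.39, 0.30 and -0.0195 for the clone ratio, 0.37 and -0.21 for the responses in U87WT and -0.31 and 0.15 in U87Mut. The cause of these shifts was not tested.

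That last setting also turned the ratio on the IGF1 array above 0 for MRPS2 (0.12), MRPL24 (0.10), MRPL15 (0.15), MRPL50 (0.18), MRPS7 (0.17), MRPS12 (0.0784), MRPS31 (0.16), MRPL47 (0.13), MRPL4 (0.20), MRPS26 (0.27), MRPS18A (0.26) and MRPL37 (0.32), and the mean ratio of MRPL51 (0.19) and MRPL33 (0.14). Means near 0 changed sign for MRPS18B with all spots (-0.00210), the mean of probes (-0.0240) and the deposited ratios (-0.00233), and for MRPL19 with the mean of probes (0.0213). Leaving out 1 array at a time, the mean ranged from -0.0555 to 0.0146 for MRPL33, above 0 without the FBS-free array, and from -0.27 to 0.00736 for MRPL42, above 0 without the IGF1 with OSI906 array. Genes called under the most settings, among those named, were MRPS6, under 9 of 12 settings, and MRPL24, MRPS23, MRPL50, MRPS7 and MRPL36, under 8.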
